A study of Mus musculus with 5 samples.

Results

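Chemokines, cytokines and their receptors were followed as 93 genes of 12293 in the deposited expression table. They are all genes whose symbol opens with 1 of 10 name stems (Cxcl, Ccl, Cxcr, Ccr, Il, Tnfsf, Tnfrsf, Csf, Tgfb or Bmp) followed by a digit, without Tnfsf11. No gene with the Ccr stem is in that table, nor are Tgfb1 and Csf1r. By name, 47 are ligands and 40 are receptors. The other 6 are set apart: the soluble antagonists Il1rn and Il18bp, the protease Bmp1, the kinase Bmp2k, the adaptor Tgfb1i1 and a row that joins the enzyme gene Il4i1 with the nucleoporin gene Nup62. The values come from 5 libraries of mammary epithelial cells from adult virgin mice without ovaries that carried hormone pellets for 14 days. The sources used here do not give the hormones in the pellets or the promoter behind the lineage label. Luminal-derived basal cells (LdBC, 2 libraries) were sorted as lineage-negative, CD24-positive, CD29hi and GFP-positive. Ordinary basal cells (Basal, 2 libraries) were lineage-negative, CD24-positive, CD29hi and TdTomato-positive, and luminal cells (1 library) were lineage-negative, CD24-positive, CD29low and GFP-positive. Each library holds about 50 sorted cells. Nothing in the labels ties the libraries of a group to separate animals. The spread behind each p-value is that between these libraries, weighted with that of other genes, and may be technical.

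Chemokines are small secreted proteins that attract cells along a gradient by binding G-protein-coupled receptors. The Cxcl proteins that carry a Glu-Leu-Arg motif, such as Cxcl1 and Cxcl2, draw neutrophils, whereas Ccl2 and Ccl7 draw monocytes and Ccl11 draws eosinophils. Many interleukins and the TGF-β and BMP families act through complexes of different receptor chains, Csf1 and Csf3 through pairs of 1 receptor and the TNF family through receptor trimers, and decoy receptors and soluble antagonists limit them. In the mammary gland, Csf1 acts on macrophages that take part in duct outgrowth, TGF-β proteins restrain ductal growth, and both layers of the epithelium send such signals to the stroma.

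Levels are FPKM, a fragment count corrected for transcript length and sequencing yield, so different genes can be set side by side. Differences are of log2(FPKM + 1) values, a scale that shrinks the changes of low genes. Where a whole group is at 0, no difference is printed. A gene listed at 0 is not shown to be absent. In all, 162 genes at 0 in the luminal library had an FPKM of 10 or more in each of the other 4 libraries, among them basal keratins and the members Cxcl14, Il23a and Ccl7. Of the 93 members, 52 and 67 were above 0 in LdBC replicates 1 and 2, 74 and 75 in Basal replicates 1 and 2, and 41 in the luminal library. As shares these are 55.9% and 72.0% in LdBC, 79.6% and 80.6% in Basal and 44.1% in luminal cells, against 74.9% and 86.4%, 89.3% and 88.1%, and 65.4% of all genes. Keratins differed between the sorted populations. Krt18, high in both GFP-positive populations, had 14101 and 12798 in LdBC, 194 and 172 in Basal and 10755 in luminal cells. Krt14, found in both CD29hi populations, had 751 and 992 in LdBC, 2682 and 2206 in Basal and 0 in luminal cells. In such bulk libraries, fewer cells of a type and less RNA per cell cannot be told apart.

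Promoter sequence is shown for 5 members: Cxcl14, the most abundant ligand of basal cells; Il1rn, found in LdBC alone; and Cxcl15, Cxcl1 and Cxcl2, chemokine genes that lie side by side on chromosome 5. Each window runs from 250 bases before to 50 bases after a gene's start, 5′ to 3′ on the gene's own strand, from RefSeq (GRCm38.p6, the assembly of mm10). Capitals mark 3 motifs searched on both strands: the κB consensus bound by NF-κB, the AP-1 motif TGANTCA and the TATA box TATAAA.
Cxcl14, chr13:56296502-56296801, minus strand: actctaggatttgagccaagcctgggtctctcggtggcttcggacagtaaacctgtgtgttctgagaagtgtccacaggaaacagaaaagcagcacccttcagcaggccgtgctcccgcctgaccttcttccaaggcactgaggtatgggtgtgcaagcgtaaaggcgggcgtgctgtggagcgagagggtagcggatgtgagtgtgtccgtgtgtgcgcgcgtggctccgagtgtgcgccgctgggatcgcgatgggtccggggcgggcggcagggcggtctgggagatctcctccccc
Cxcl15, chr5:90794284-90794583, plus strand: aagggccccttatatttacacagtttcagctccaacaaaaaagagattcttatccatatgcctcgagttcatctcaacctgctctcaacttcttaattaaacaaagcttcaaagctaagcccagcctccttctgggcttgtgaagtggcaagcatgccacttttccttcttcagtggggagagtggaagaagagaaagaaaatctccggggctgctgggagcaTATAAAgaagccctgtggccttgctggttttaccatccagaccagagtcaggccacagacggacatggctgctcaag
Cxcl1, chr5:90890995-90891294, plus strand: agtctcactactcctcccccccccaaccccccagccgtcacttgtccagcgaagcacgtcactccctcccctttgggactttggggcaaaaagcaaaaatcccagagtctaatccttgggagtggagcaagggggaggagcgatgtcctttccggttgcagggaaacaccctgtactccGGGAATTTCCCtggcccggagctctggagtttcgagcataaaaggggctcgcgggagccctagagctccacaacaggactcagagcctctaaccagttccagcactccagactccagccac
Cxcl2, chr5:90903649-90903948, plus strand: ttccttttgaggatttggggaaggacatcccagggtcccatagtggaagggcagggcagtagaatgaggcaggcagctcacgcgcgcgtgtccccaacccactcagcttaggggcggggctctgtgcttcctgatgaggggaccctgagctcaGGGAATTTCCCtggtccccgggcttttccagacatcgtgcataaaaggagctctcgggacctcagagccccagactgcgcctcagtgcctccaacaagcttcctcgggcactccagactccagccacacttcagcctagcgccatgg
Il1rn, chr2:24336610-24336909, plus strand: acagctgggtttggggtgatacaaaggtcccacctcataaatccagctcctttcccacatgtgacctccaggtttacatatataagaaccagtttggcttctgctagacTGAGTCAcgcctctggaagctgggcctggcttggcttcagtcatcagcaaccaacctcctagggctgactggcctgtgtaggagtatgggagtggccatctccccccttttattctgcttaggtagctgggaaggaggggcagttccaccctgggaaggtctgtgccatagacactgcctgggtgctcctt

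Cxcl1 and Cxcl2 hold the same 11-base run in capitals, which is 2 overlapping κB matches, one on each strand, with its first base at position -71 from the start of Cxcl1 and -97 from that of Cxcl2. Cxcl15 has a TATA box at position -27 and no κB match in this window. The first of 3 windows of Il1rn has an AP-1 match at position -141, and the window of Cxcl14 has no match to the 3 motifs. Windows were found for 65 of the 93 members (84 windows). The κB consensus was in 12 of these windows (14.3%), against 4.51% of all 32851 windows. The AP-1 motif was in 16 (19.0%, against 7.81%) and the TATA box in 14 (16.7%, against 13.6%). These shares are descriptions of the letters, and several windows belong to the same gene.

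The most abundant member was a receptor. Tnfrsf12a, the receptor of the TNF family ligand TWEAK (chromosome 17, 23675445 to 23677468, minus strand), had 1576 and 1155 FPKM in LdBC, 734 and 578 in Basal and 455 in luminal cells. The LdBC pair lay above the basal pair, and the luminal library was the lowest. The difference of LdBC from Basal was 1.05 (SE 0.24, limma with Benjamini-Hochberg adjusted p = 0.154) and did not pass. Without Tnfrsf12a, the receptors summed to 278 and 383 FPKM in LdBC, 440 and 511 in Basal and 895 in the luminal library. The ligands summed to 1969 and 973 in LdBC, 2305 and 1779 in Basal and 582 in luminal cells. In FPKM as deposited, summed ligand transcript was lowest and summed receptor transcript apart from Tnfrsf12a highest in the luminal library. With Tnfrsf12a, the receptors summed to 1854 and 1538 in LdBC, 1174 and 1089 in Basal and 1351 in luminal cells. The FPKM of all genes summed to 598089 and 605911 in LdBC, 457994 and 405574 in Basal and 813804 in luminal cells. Relative to these totals, the receptor sum without Tnfrsf12a was not highest in luminal cells.

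**Figure D1:**
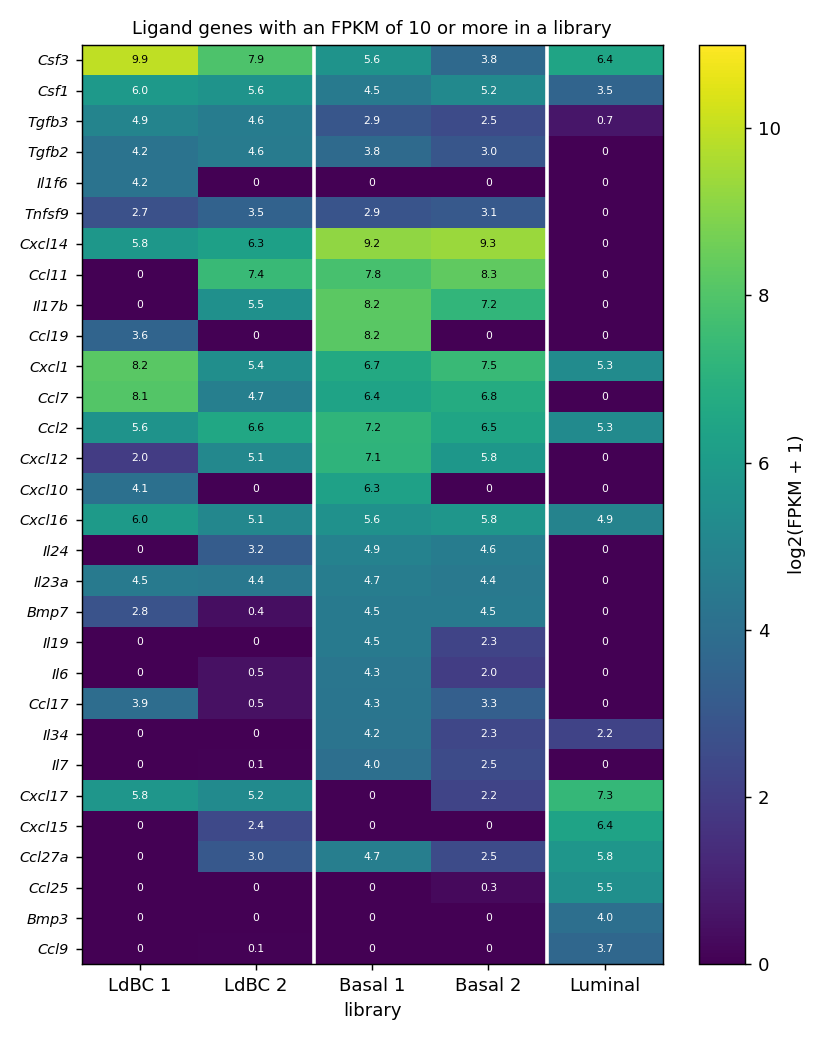
Heat map of log2(FPKM + 1) for the 30 ligand genes with an FPKM of 10 or more in at least 1 library; columns are the 2 LdBC, 2 Basal and 1 luminal libraries, and the number in each cell is its value, with 0 where the gene is listed at 0. Rows are grouped by the population with the highest mean log2 value: Csf3 leads the LdBC block, Cxcl14 the Basal block and Cxcl17 the luminal block.

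Chemokine ligands of basal cells came first by level. Cxcl14, a chemokine of epithelia (chromosome 13, 56288643 to 56296551, minus strand), had 55.8 and 75.5 FPKM in LdBC, 581 and 650 in Basal and was listed at 0 in the luminal library. The 3 populations did not overlap, with LdBC between the other two. LdBC differed from Basal by -3.22 (SE 0.26, limma with Benjamini-Hochberg adjusted p = 0.123), which did not pass over all genes. Cxcl12, which retains Cxcr4-bearing cells, had 2.90 and 34.4 in LdBC, 140 and 54.9 in Basal and 0 in luminal cells. Ccl11 had 0 and 173 in LdBC, 221 and 314 in Basal and 0 in luminal cells. The LdBC libraries lay below both basal libraries for each of these, but on the log2 scale differed from each other more than the basal libraries did.

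Several chemokines were spread over LdBC and Basal with no separation between them. Ccl2 had 49.1 and 93.2 FPKM in LdBC, 147 and 88.1 in Basal and 37.9 in luminal cells. Ccl7, its neighbour, had 266 and 25.6 in LdBC, 81.5 and 107 in Basal and 0 in luminal cells. Cxcl1 had 288 and 42.0 in LdBC, 101 and 174 in Basal and 38.5 in luminal cells. Replicate 1 of LdBC held the highest value of both Ccl7 and Cxcl1 and its replicate 2 the lowest among the 4 CD29hi libraries. Cxcl16, a membrane-bound chemokine, was the most even, with 63.4 and 33.6 in LdBC, 46.1 and 53.3 in Basal and 28.9 in luminal cells. Ccl17, which draws Ccr4-bearing T cells, had 14.1 and 0.392 in LdBC, 18.2 and 8.97 in Basal and 0 in luminal cells.

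A group of chemokines led in the luminal library. Cxcl17, a chemokine of mucosal epithelia (chromosome 7, 25400053 to 25412886, minus strand), had 53.6 and 37.0 FPKM in LdBC, 0 and 3.71 in Basal and 162 in luminal cells. LdBC lay above Basal and below luminal cells, the reverse of the order for Cxcl14. The difference of LdBC from Basal was 4.39 (SE 0.90, limma with Benjamini-Hochberg adjusted p = 0.135) and that of Basal from luminal cells -6.23 (SE 1.10, limma adjusted p = 0.0554), and neither passed. Cxcl15, a neutrophil chemokine known from mouse lung, had 0 and 4.38 in LdBC, 0 and 0 in Basal and 83.4 in luminal cells. Ccl25, the ligand of Ccr9 known from thymus and gut, had 0 and 0 in LdBC, 0 and 0.207 in Basal and 43.1 in luminal cells. Unlike Cxcl17, both were at or near 0 in LdBC. Ccl25 passed as lower in Basal than in luminal cells (-5.33, SE 0.47, limma adjusted p = 0.0349), and also in LdBC, which was listed at 0 (limma adjusted p = 0.0440).

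The chemokines Ccl27a and Ccl9 were also highest in the luminal library. Ccl27a, a skin-homing chemokine, had 0 and 7.10 FPKM in LdBC, 25.0 and 4.75 in Basal and 54.7 in luminal cells. Its near-identical copy Ccl27b had at most 4.44, and the sources used here do not state how fragments were shared between the copies. Ccl9, a chemokine of myeloid cells in mice, had 0 and 0.0429 in LdBC, 0 and 0 in Basal and 11.6 in luminal cells. It passed as lower in LdBC (-3.62, SE 0.39, limma with Benjamini-Hochberg adjusted p = 0.0469) and in Basal, which was listed at 0 (limma adjusted p = 0.0371).

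Chemokines of the interferon and lymphoid kind were found in 1 library of a group and not in the other. Ccl19, which guides T cells and dendritic cells, had 10.8 and 0 FPKM in LdBC, 289 and 0 in Basal and 0 in luminal cells. Cxcl10 had 15.7 and 0 in LdBC, 76.4 and 0 in Basal and 0 in luminal cells. Its neighbours Cxcl9 (7.60) and Cxcl11 (2.95) were above 0 in Basal replicate 1 alone. That library also held the endothelial markers Cldn5 at 110 and Pecam1 at 11.3, while in Basal replicate 2 both were at 0. Of 10 listed endothelial genes, 7 were in the table. All 7 were above 0 in Basal replicate 1 (sum 163) and 1 in Basal replicate 2 (sum 0.0169), against 2 and 6 in LdBC (sums 6.19 and 6.63). Of 20 listed leukocyte genes only 9 were in the table, of which 5 and 4 were above 0 in the 2 Basal libraries (sums 24.4 and 8.07). The part of these cells in the Ccl19 and Cxcl10 values was not tested.

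Cxcl2, a neutrophil chemokine, was low throughout, with 0 and 0.137 FPKM in LdBC, 5.63 and 9.53 in Basal and 0 in luminal cells. The LdBC libraries lay below the basal ones, by -2.97 with an SE of 0.47, and this did not pass (limma adjusted p = 0.123). Its neighbour Cxcl1, with the same κB run, was the higher of the pair in every library. The remaining chemokine ligands did not reach 10 FPKM: Ccl4 (5.85) and Ccl6 (4.21) were above 0 in LdBC replicate 2 alone, and Ccl12 (4.03) and Ccl1 (1.28) in Basal replicate 2 alone.

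Among the interleukins, Il17b was the most abundant ligand. Il17b, a cytokine of the IL-17 family that binds Il17rb (chromosome 18, 61684887 to 61692538, plus strand), had 0 and 44.5 FPKM in LdBC, 296 and 148 in Basal and 0 in luminal cells. Both LdBC libraries lay below both basal libraries, but they stood 0 against 44.5 from each other, and the difference of -4.97 (SE 2.09, limma with Benjamini-Hochberg adjusted p = 0.314) did not pass. Its receptor chain Il17rb had 6.34 and 0 in LdBC, 1.58 and 2.95 in Basal and 0 in luminal cells.

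A set of interleukins was found mainly in basal libraries. Il24 had 0 and 8.33 FPKM in LdBC, 28.7 and 23.7 in Basal and 0 in luminal cells, and Il19 had 0 and 0 in LdBC, 21.6 and 3.79 in Basal and 0 in luminal cells. Both belong to the IL-10 family and act on epithelia. Il6, an inflammatory cytokine, had 0 and 0.410 in LdBC, 18.8 and 2.99 in Basal and 0 in luminal cells. Il7, a growth factor of lymphocytes, had 0 and 0.0530 in LdBC, 15.2 and 4.69 in Basal and 0 in luminal cells. Il34, which shares the receptor of Csf1, had 0 and 0 in LdBC, 17.8 and 4.09 in Basal and 3.58 in luminal cells. In these 5 genes each LdBC library lay below each basal library. Il19, Il6, Il7 and Il34 were higher in Basal replicate 1, the library with the endothelial sum of 163, than in Basal replicate 2, and the part of those cells in them was not tested. None of the 5 passed against Basal (limma with Benjamini-Hochberg adjusted p of 0.141 for Il7 and 0.166 for Il34, the lowest of the 5).

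Il23a, a subunit of interleukin 23, did not separate LdBC from Basal. It had 22.3 and 20.2 FPKM in LdBC, 24.5 and 20.7 in Basal and was listed at 0 in luminal cells. It passed as higher than in the luminal library both in LdBC (limma with Benjamini-Hochberg adjusted p = 0.0440) and in Basal (limma adjusted p = 0.0349). Il1f6, an agonist of the IL-1 family also called IL-36α, had 17.5 in LdBC replicate 1 and 0 in the other 4 libraries. The other IL ligands did not reach 10 FPKM: Il17c, which acts through Il17re, had 9.67 in LdBC replicate 1 alone, Il15 had at most 5.07, Il1b 3.34, Il11 1.52 and Il16 1.03.

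The soluble IL-1 antagonist was found in LdBC alone. Il1rn, which blocks the IL-1 receptor (chromosome 2, 24336853 to 24351494, plus strand), had 38.4 and 31.2 FPKM in LdBC and 0 in the 2 Basal libraries and the luminal library. It passed as higher in LdBC than in luminal cells (limma with Benjamini-Hochberg adjusted p = 0.0487) and did not pass against Basal (limma adjusted p = 0.123). Of the IL-1 receptor chains, Il1r1, to which the antagonist binds, had 2.49 and 2.71 in LdBC, 0.882 and 1.22 in Basal and 0 in luminal cells. The co-receptor Il1rap had 4.30 and 4.97 in LdBC, 3.73 and 6.29 in Basal and 0 in luminal cells. Il1rn and Tnfrsf23, a decoy receptor known in mouse, were the 2 members above 0 in both LdBC libraries and in no other library. Tnfrsf23 was lower in level, with 8.83 and 4.29 in LdBC. Of 20 listed leukocyte genes only 9 were in the table, and Ptprc was not among them. Of these 9, 3 and 5 were above 0 in LdBC (sums 34.7 and 58.0), with 5 and 4 in Basal (24.4 and 8.07) and 2 in luminal cells (132, of which Lcp1 98.5). Lcp1 had 8.05 and 31.6 in LdBC and 0.165 and 0 in Basal, and Cd68 had 17.5 and 8.76 in LdBC, 7.18 and 3.86 in Basal and 33.1 in luminal cells. Cd52 (9.14 and 6.10) was above 0 in LdBC alone and C1qa (9.76) in LdBC replicate 2 alone, while Laptm5, Lyz2, C1qb and C1qc were at 0 in both LdBC libraries. The part of leukocyte transcripts in the Il1rn values was not tested.

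**Figure D2:**
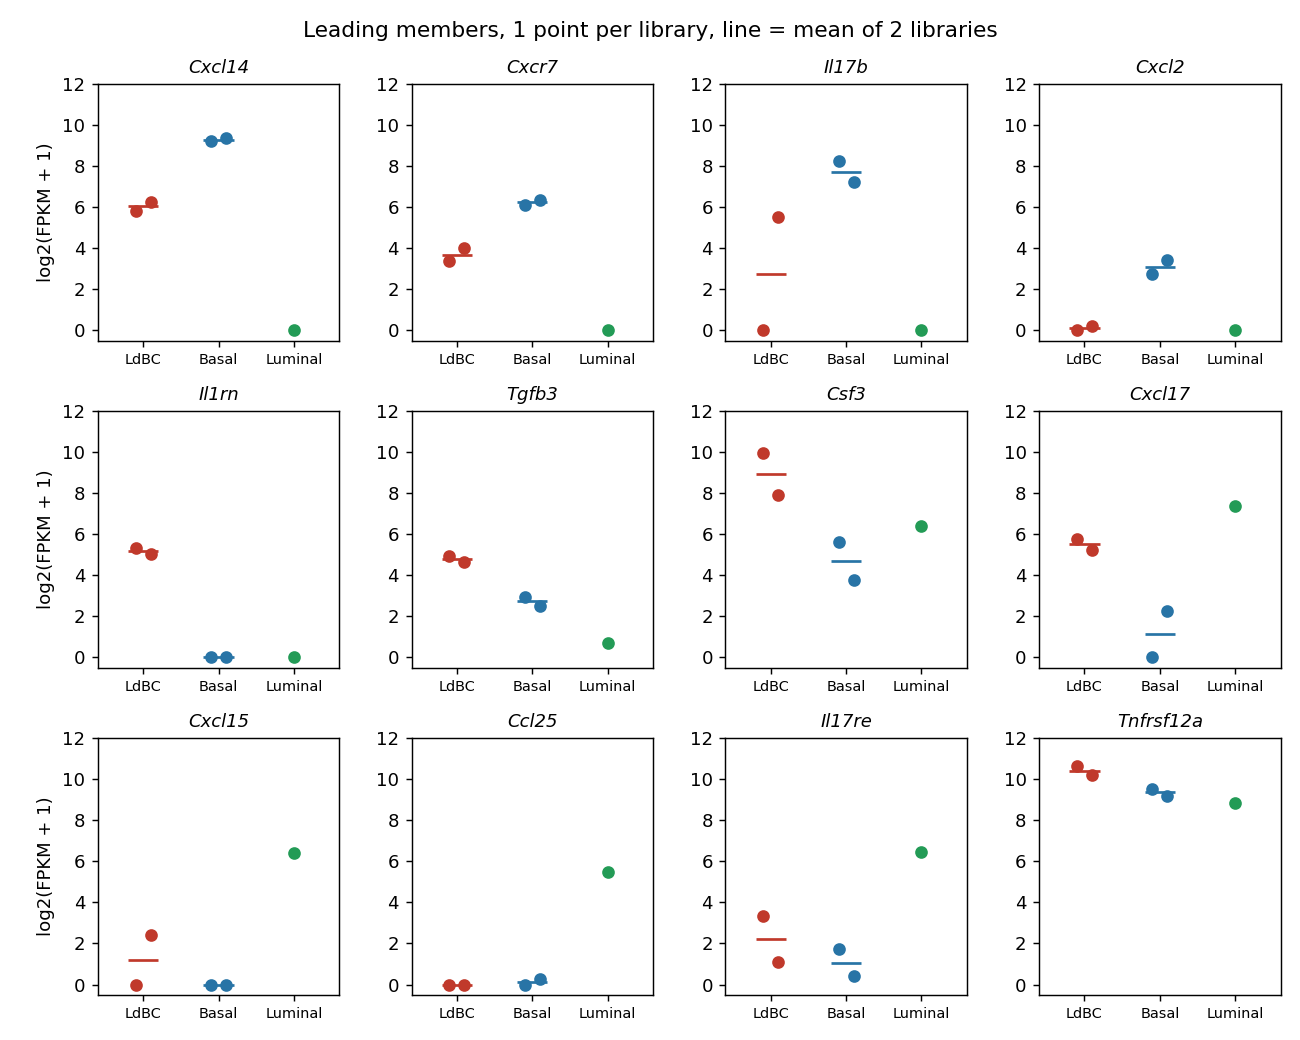
Dot plots of log2(FPKM + 1) for 12 members, with 1 point per library, columns for LdBC (2), Basal (2) and luminal cells (1), and a line at the mean of 2 libraries. Cxcl14, Cxcr7, Il17b and Cxcl2 are highest in Basal, Il1rn, Tgfb3, Csf3 and Tnfrsf12a in LdBC, and Cxcl17, Cxcl15, Ccl25 and Il17re in the luminal library.

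The colony-stimulating factors Csf3 and Csf1 had their highest values in LdBC. Csf3, the granulocyte factor G-CSF (chromosome 11, 98701263 to 98703629, plus strand), had 973 and 240 FPKM in LdBC, 48.6 and 12.6 in Basal and 83.7 in luminal cells. Csf1, the macrophage factor, had 61.1 and 49.0 in LdBC, 21.7 and 36.1 in Basal and 10.7 in luminal cells. In FPKM as deposited, each LdBC library lay above the other 3 libraries for both genes. Relative to the FPKM sum of all genes this held for Csf3, but Csf1 was lower in LdBC replicate 2 than in Basal replicate 2. The differences of LdBC from Basal, 4.22 (SE 1.03, limma with Benjamini-Hochberg adjusted p = 0.161) for Csf3 and 0.94 (SE 0.38, limma adjusted p = 0.293) for Csf1, did not pass. Csf2 had its highest value, 1.54, in Basal replicate 2. Dissociation stress genes, which can move with inflammatory transcripts, summed to 3592 and 4830 FPKM in LdBC, 4264 and 4329 in Basal and 6504 in luminal cells. All 16 were above 0 in every library, and their sum was highest in luminal cells. Of the 16, 4 lay above Basal in LdBC, among them Klf6 (583 and 472, against 118 and 104) and Hspa1a (39.0 and 21.9, against 5.96 and 4.61). The 1 that lay below was Fos (94.2 and 657, against 700 and 775). Of all genes, 30.5% lay above and 18.6% below. The part of stress genes in the Csf3 values was not tested.

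The TGF-β ligands Tgfb3 and Tgfb2 also had their highest values in LdBC. Tgfb3 had 29.8 and 23.7 FPKM in LdBC, 6.70 and 4.71 in Basal and 0.601 in luminal cells, so that LdBC lay above Basal and Basal above luminal cells. Its difference of LdBC from Basal was 2.06 (SE 0.44, limma with Benjamini-Hochberg adjusted p = 0.142) and that from luminal cells 4.11 (SE 0.54, limma adjusted p = 0.0519), and neither passed. Tgfb2 had 17.5 and 23.1 in LdBC, 13.1 and 6.75 in Basal and 0 in luminal cells. Among BMP ligands, which signal through Smad proteins as TGF-β does, Bmp7 had 5.99 and 0.341 in LdBC, 22.3 and 21.6 in Basal and 0 in luminal cells. Bmp3, which antagonises other BMPs, was found in the luminal library alone, with 15.0. It passed as lower in LdBC and in Basal, but both were at 0 throughout. The spread in that test therefore came from other genes only. Bmp2 reached 6.83 in LdBC replicate 1.

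The 3 ligands named Tnfsf were low. Tnfsf9, a costimulator of T cells, had 5.67 and 10.1 FPKM in LdBC, 6.26 and 7.51 in Basal and 0 in luminal cells, with no separation of LdBC from Basal. The death ligand Tnfsf10 had 0 and 1.62 in LdBC, 7.24 and 2.61 in Basal and 3.97 in luminal cells. Tnfsf13b, a B cell factor, reached 6.24 in LdBC replicate 2.

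**Figure D3:**
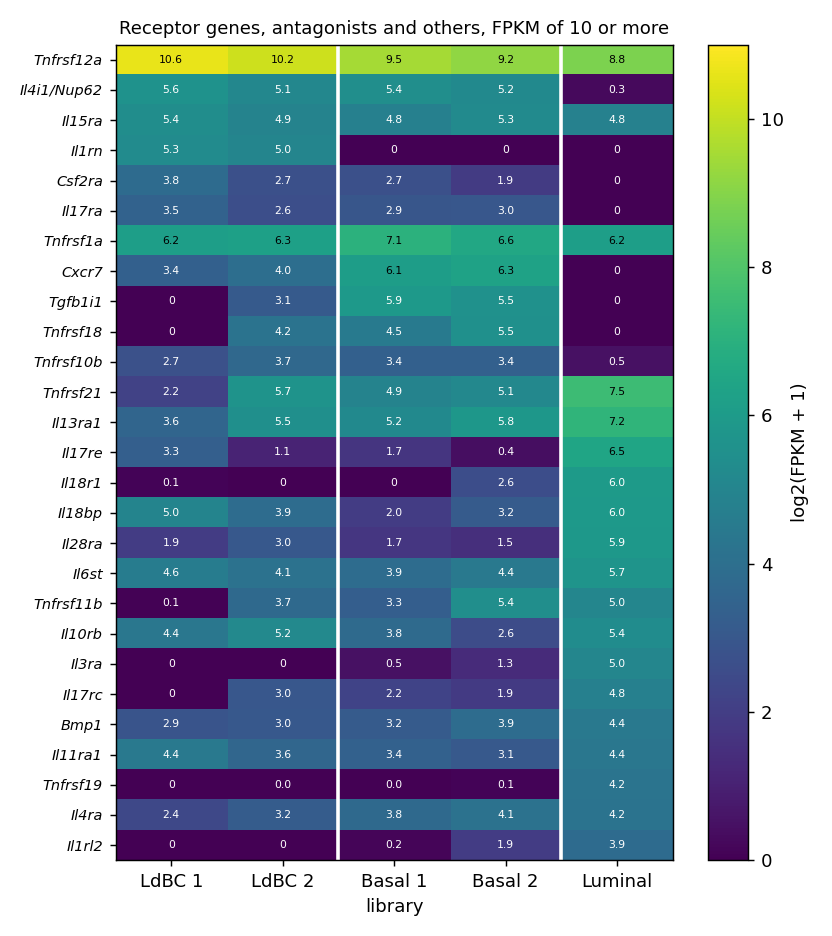
Heat map of log2(FPKM + 1) for the 22 receptor genes and 5 genes set apart with an FPKM of 10 or more in at least 1 library; columns are the 2 LdBC, 2 Basal and 1 luminal libraries, and the number in each cell is its value, with 0 where the gene is listed at 0. Rows are grouped by the population with the highest mean log2 value: Tnfrsf12a leads the LdBC block, Tnfrsf1a the Basal block and Tnfrsf21 the luminal block.

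Of the 40 receptors, 22 reached 10 FPKM, and the chemokine receptor among them marked basal cells. Cxcr7, now called Ackr3, is an atypical receptor that binds and removes Cxcl12 (chromosome 1, 90203980 to 90216751, plus strand). It had 9.40 and 14.8 FPKM in LdBC, 67.8 and 79.7 in Basal and 0 in luminal cells. The populations did not overlap, in the same order as for Cxcl14. The difference of LdBC from Basal was -2.54 (SE 0.39, limma with Benjamini-Hochberg adjusted p = 0.123) and did not pass, while Basal passed as higher than luminal cells (limma adjusted p = 0.0349). The classical Cxcl12 receptor Cxcr4 had at most 1.79, and Cxcr2, the receptor of Cxcl1 and Cxcl2, at most 1.24.

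Of the 22 interleukin receptor genes, 12 had their highest value in the luminal library, 7 in an LdBC and 3 in a Basal library, and 7 were at 0 in the luminal library. The like count over all genes was not made. Of all tested genes, 41.7% had both LdBC libraries and 48.5% both Basal libraries below the luminal one. The count is therefore not read as particular to these receptors. Il17re, a receptor chain for Il17c, had 9.10 and 1.11 FPKM in LdBC, 2.27 and 0.320 in Basal and 87.6 in luminal cells. Il18r1, the interleukin 18 receptor, had 0.0695 and 0 in LdBC, 0 and 5.11 in Basal and 62.1 in luminal cells. Il28ra, the interferon λ receptor chain now called Ifnlr1, had 2.84 and 7.13 in LdBC, 2.36 and 1.78 in Basal and 57.6 in luminal cells. For each, the luminal library lay well above the other 4. Only Il3ra among the interleukin receptors passed, with 0 and 0 in LdBC, 0.414 and 1.52 in Basal and 31.7 in luminal cells. It was lower in LdBC (limma with Benjamini-Hochberg adjusted p = 0.0499) and in Basal, by -4.11 with an SE of 0.62 (limma adjusted p = 0.0485).

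Receptors of IL-4 and IL-13, IL-6 and IL-10 signals were found in all 5 libraries. Il13ra1 had 11.1 and 43.5 FPKM in LdBC, 36.0 and 56.3 in Basal and 146 in luminal cells. Il4ra, its partner chain, had 4.25 and 8.08 in LdBC, 12.7 and 16.6 in Basal and 17.4 in luminal cells. Both were highest in luminal cells, and Il4ra lay lower in both LdBC libraries than in both basal ones. Il6st, the shared chain gp130, had 23.3 and 16.7 in LdBC, 13.6 and 20.5 in Basal and 51.0 in luminal cells, and its partner Il6ra had at most 7.50. Il10rb, shared by IL-10 family and interferon λ receptors, had 19.5 and 35.2 in LdBC, 12.8 and 4.97 in Basal and 40.0 in luminal cells. Il15ra was even, with 40.7 and 29.6 in LdBC, 26.4 and 37.8 in Basal and 27.3 in luminal cells.

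Il11ra1, the interleukin 11 receptor, had 20.6 and 11.5 FPKM in LdBC, 9.53 and 7.51 in Basal and 19.8 in luminal cells. Its near-identical copy Il11ra2 had at most 1.85, and the split between the copies is uncertain. The last 8 bases of Il11ra1 overlap Ccl27a on the other strand, and without strand only reads there are uncertain between them. Il17rc, which pairs with Il17ra, had 0 and 7.00 in LdBC, 3.69 and 2.70 in Basal and 26.7 in luminal cells. Il17ra itself went the other way, with 10.0 and 5.23 in LdBC, 6.66 and 6.95 in Basal and 0 in luminal cells. Il1rl2, the IL-36 receptor that binds Il1f6, had 0 and 0 in LdBC, 0.112 and 2.83 in Basal and 13.6 in luminal cells. Csf2ra, a chain of the GM-CSF receptor, had 13.4 and 5.49 in LdBC, 5.43 and 2.73 in Basal and 0 in luminal cells.

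TNF receptors split between populations. Tnfrsf1a, the main receptor of TNF, had 70.2 and 75.6 FPKM in LdBC, 133 and 95.8 in Basal and 71.8 in luminal cells. Tnfrsf21, a death-domain receptor, had 3.44 and 49.5 in LdBC, 29.6 and 33.8 in Basal and 183 in luminal cells. Tnfrsf19, known as Troy, had 0 and 0.0271 in LdBC, 0.0255 and 0.0929 in Basal and 17.5 in luminal cells. Tnfrsf19 was at or near 0 in all 4 CD29hi libraries and passed as lower in LdBC (-4.19, SE 0.42, limma with Benjamini-Hochberg adjusted p = 0.0440) and in Basal (-4.13, SE 0.42, limma adjusted p = 0.0349). Tnfrsf18, a costimulatory receptor known from regulatory T cells, had 0 and 17.0 in LdBC, 21.5 and 44.9 in Basal and 0 in luminal cells. Tnfrsf10b, the mouse receptor of Tnfsf10, had 5.55 and 12.1 in LdBC, 9.46 and 9.33 in Basal and 0.395 in luminal cells. Tnfrsf11b, the soluble decoy osteoprotegerin, had 0.0464 and 12.4 in LdBC, 8.64 and 41.7 in Basal and 31.8 in luminal cells. The Tnfrsf11b values of Basal overlapped those of LdBC and of luminal cells, while both LdBC libraries lay below the luminal one. The RANK receptor Tnfrsf11a had 0 and 4.49 in LdBC, 0.466 and 9.47 in Basal and 0 in luminal cells.

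Of the 18 receptors under 10 FPKM, those not yet given had highest values between 1.51 and 7.86. Il20ra, which takes part in the receptor of Il19 and Il24, reached 7.86 and its partner Il20rb 4.00, both in LdBC libraries. Csf2rb2 (3.93), Csf2rb (2.46) and Il2rg (3.96), chains known from blood cells, were highest in Basal replicate 1. Tnfrsf14 (3.90) was above 0 there alone, and Tnfrsf9 (3.44) and Tnfrsf13c (1.51) in Basal replicate 2 alone. Il17rd reached 1.58 in luminal cells.

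Among the genes set apart, Tgfb1i1, an adaptor of focal adhesions and smooth muscle also called Hic-5, had 0 and 7.62 FPKM in LdBC, 60.7 and 45.7 in Basal and 0 in luminal cells. Il18bp, which neutralises interleukin 18, had 30.5 and 13.8 in LdBC, 2.88 and 7.92 in Basal and 61.4 in luminal cells. Il18bp and the receptor Il18r1 were thus both highest in the luminal library, but in LdBC the antagonist was above its basal level and the receptor was not. Bmp1, which cleaves procollagen, had 6.28 and 7.09 in LdBC, 8.05 and 13.8 in Basal and 20.9 in luminal cells. The joined row of Il4i1 and Nup62 had 48.1 and 32.9 in LdBC, 42.3 and 36.2 in Basal and 0.227 in luminal cells. It passed as higher than luminal cells in LdBC (5.06, SE 0.43, limma with Benjamini-Hochberg adjusted p = 0.0440) and in Basal (5.03, SE 0.43, limma adjusted p = 0.0349), and the genes of the row cannot be told apart. Bmp2k reached 5.34 in luminal cells.

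Members that lie side by side in the genome had like values in some clusters and unlike ones in others. With a gap of at most 250000 bases, 30 members fall into 11 such clusters (positions from GENCODE M21, GRCm38). On chromosome 5, Cxcl15 (90794534 to 90803067), Cxcl1 (90891241 to 90893115) and Cxcl2 (90903871 to 90905938), all on the plus strand, differed: Cxcl15 was highest in the luminal library and Cxcl2 in the basal libraries, while Cxcl1 was highest in LdBC replicate 1 with LdBC and Basal overlapping. On chromosome 1, Il1r1 (40225080 to 40317257) was at 0 in luminal cells, while its neighbours Il1rl2 (40324610 to 40367562) and Il18r1 (40465552 to 40500854) were highest there. On chromosome 2, Il1f6 (24215418 to 24225702) and Il1rn (24336853 to 24351494) were both above 0 in LdBC libraries alone, the agonist in 1 and the antagonist in 2. On chromosome 1, Il24 (130882074 to 130887454) and Il19 (130932656 to 130940115) were both highest in Basal. On chromosome 11, Ccl2, Ccl7 and Ccl11 were among the highest ligands, and Ccl12 and Ccl1 beside them were at 0 in 4 of 5 libraries.

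**Figure D4:**
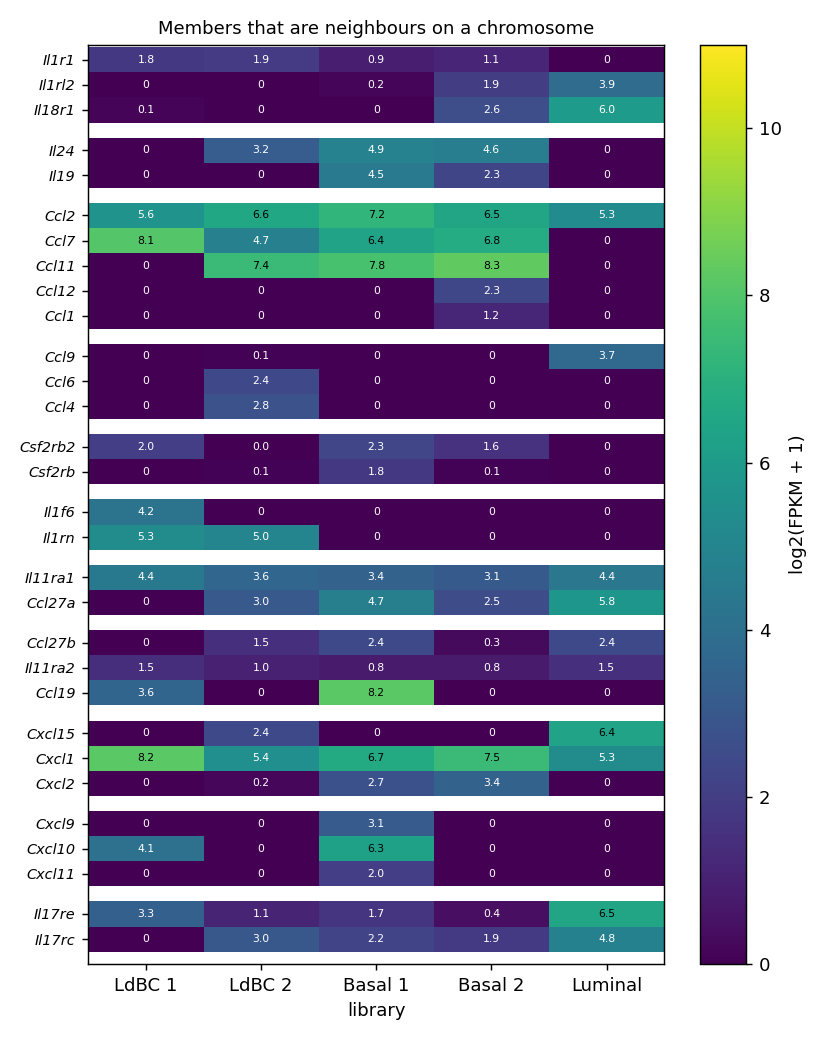
Heat map of log2(FPKM + 1) for the 30 members that lie within 250000 bases of another member, in genome order, with gaps between the 11 clusters; columns are the 2 LdBC, 2 Basal and 1 luminal libraries. Il24 and Il19 are both highest in Basal, whereas Cxcl15 is highest in the luminal library and its neighbour Cxcl2 in Basal.

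The first comparison asks how LdBC differ from ordinary basal cells. Of the 93 members, 78 had a mean FPKM of 1 or more and were tested, together with all other such genes (10626 in all). The 15 left out reached at most 4.21 FPKM in a library (Ccl6). No member passed in either direction in limma at a Benjamini-Hochberg adjusted p under 0.05, and 0.00941% of all genes (1 gene, the keratin Krt18) passed as higher and 0% as lower. At an unadjusted p under 0.05 there were 16 of 78 members (20.5%) against 20% of all genes. In 15 members (19.2%) the LdBC pair lay above the basal pair, against 30.5% of all genes, and in 22 (28.2%) below, against 18.6%. Ligands made up 5 of the 15 and 12 of the 22, and receptors 8 and 7. The median difference was -0.27 over 39 ligands and -0.24 over 33 receptors, against 0.20 over all genes. Without members listed at 0 in a whole group the medians were -0.74 over 29 ligands and -0.20 over 30 receptors, against 0.22. The 2 libraries of a group were also further apart for members: 41.3% of members found in LdBC were at 0 in 1 of its 2 libraries, against 22.9% of all genes, and 22.6% against 12.7% in Basal. With a single LdBC library more genes of any kind lie apart: without LdBC replicate 1, 25 members (32.1%) lay above and 32 (41.0%) below Basal, against 51.7% and 29.7% of all genes. Without LdBC replicate 2 these were 28 (35.9%) and 35 (44.9%), against 45.4% and 36.8%.

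The second comparison sets LdBC against luminal cells, which carry GFP as they do, and the third sets ordinary basal cells against luminal cells. Both rest on the same single luminal library, whose spread was taken to equal that of the other groups. In LdBC against luminal cells, 4 members (Cxcl14, Il23a, Il1rn and the joined Il4i1 row) passed as higher and 5 (Ccl25, Bmp3, Ccl9, Il3ra and Tnfrsf19) as lower. These are 5.13% and 6.41% of the 78, against 2.06% and 1.95% of all genes (4.01% in either direction). In Basal against luminal cells, 4 passed as higher (Cxcl14, Cxcr7, Il23a and the joined row) and the same 5 as lower, against 3.23% and 5.08% of all genes (8.31% in either direction). Leaving out LdBC replicate 1, LdBC replicate 2, Basal replicate 1 or Basal replicate 2 left 0 members and 0 of all 10626 genes passing in either comparison, with 1 residual degree of freedom. In LdBC against luminal cells 0 members passed with median-of-ratios scaling and 0 with no filter on low values, where 8 passed in Basal against luminal cells in each case. In most of these calls 1 of the groups was listed at 0. The exceptions were Ccl9 in LdBC, Ccl25 and Il3ra in Basal, and Tnfrsf19 and the joined row in both. The 5 lower members met the filter on mean FPKM only through their luminal value. Bmp3, Ccl25, Ccl9 and Tnfrsf19 were at or near 0 in every LdBC and Basal library. For these, the spread in the test came mostly from other genes. With median-of-ratios scaling 387 of 619 genes called in Basal against luminal cells were higher, against 343 of 883 as deposited.

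By position, 27 members lay above and 27 below luminal cells in both LdBC libraries (34.6% each, against 35% and 41.7% of all genes). In Basal these were 38 (48.7%) and 24 (30.8%), against 39.8% and 48.5%. For ligands alone, 21 of 39 lay above and 7 below luminal cells in Basal, and 14 above and 9 below in LdBC. Receptors were split, 15 above and 14 below in Basal and 11 above and 15 below in LdBC. The median difference of LdBC from luminal cells was 1.48 for ligands and 0.02 for receptors over all tested, but -0.48 over 12 ligands and -1.37 over 18 receptors above 0 in both groups. All genes had 0.01, and -0.63 when above 0 in both. The median difference of Basal from luminal cells was 1.56 for ligands and 0.00 for receptors, and 0.45 over 12 ligands and -1.61 over 20 receptors above 0 in both. All genes had -0.13 and -0.94. Of the 93 members 52 were listed at 0 in the luminal library.

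Genes of the same pathways that the name rule leaves out were read from lists of further ligands, further receptors and signalling genes. In LdBC against Basal, 0 of 12 further ligands, 27 further receptors, 33 NF-κB pathway genes, 22 JAK-STAT genes and 24 TGF-β and BMP pathway genes passed in either direction in limma with Benjamini-Hochberg adjustment. Their median differences were -0.48, -0.25, 0.44, -0.01 and -0.25, against 0.20 over all genes. Tnf, an inflammatory ligand, had 79.9 and 8.35 FPKM in LdBC, 6.19 and 0 in Basal and 46.9 in luminal cells. Lif, which signals through gp130, had 55.2 and 14.0 in LdBC, 2.39 and 5.13 in Basal and 34.3 in luminal cells. Both lay above Basal in LdBC, as Csf3 did. Cx3cl1, a membrane-bound chemokine, had 34.5 and 34.0 in LdBC, 55.7 and 57.9 in Basal and 3.80 in luminal cells, and passed as higher than luminal cells in LdBC (2.88, SE 0.31, limma adjusted p = 0.0469) and in Basal (3.59, SE 0.31, limma adjusted p = 0.0349).

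Among the further receptors, Sigirr, which restrains IL-1 family signals, had 22.1 and 13.3 FPKM in LdBC, 0 and 1.29 in Basal and 0 in luminal cells. The interferon receptor Ifnar1 had 11.6 and 14.2 in LdBC, 2.90 and 2.79 in Basal and 15.0 in luminal cells, and the TGF-β co-receptor Tgfbr3 had 9.61 and 39.4 in LdBC, 54.9 and 70.6 in Basal and 6.14 in luminal cells. None of these 3 passed between LdBC and Basal (limma with Benjamini-Hochberg adjusted p of 0.129 for Sigirr, 0.148 for Ifnar1 and 0.364 for Tgfbr3). The death receptor Fas had 31.7 and 42.6 in LdBC, 46.2 and 41.9 in Basal and 0 in luminal cells, and passed as higher than luminal cells in both (limma with Benjamini-Hochberg adjusted p = 0.0440 for LdBC and 0.0349 for Basal). No other receptor of this list passed against luminal cells.

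In the signalling lists, LdBC stood above Basal for the adaptor Traf6 (17.8 and 10.8 FPKM, against 0.796 and 3.15), the kinase Ikbkb (11.9 and 23.7, against 2.95 and 6.50) and Stat6 (35.7 and 37.6, against 6.75 and 9.84). They stood below Basal for Traf5 (0 and 5.12, against 13.2 and 9.75), for Socs5 (2.32 and 8.77, against 32.7 and 18.7) and for Pias4 (0 and 0.0550, against 8.47 and 18.7). Traf6, Traf5, Pias4 and Stat6 were at 0 in luminal cells, and Stat6 passed as higher in LdBC than there (limma with Benjamini-Hochberg adjusted p = 0.0440). The inhibitor Nfkbie had 8.79 and 11.3 in LdBC, 10.3 and 8.80 in Basal and 104 in luminal cells, and passed as lower in LdBC (-3.26, SE 0.41, limma adjusted p = 0.0499) and in Basal (-3.32, SE 0.41, limma adjusted p = 0.0414). The kinase Chuk, at 0 in luminal cells, had 17.9 and 17.0 in LdBC and 24.0 and 12.2 in Basal, and passed as higher in Basal (limma adjusted p = 0.0475).

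Of the TGF-β and BMP pathway, the antagonist Fst had 93.9 and 93.8 FPKM in LdBC, 376 and 433 in Basal and 0.0689 in luminal cells. Fst passed as higher than luminal cells in LdBC (6.47, SE 0.25, limma with Benjamini-Hochberg adjusted p = 0.0440) and in Basal (8.56, SE 0.25, limma adjusted p = 0.0190). Thbs1, which activates latent TGF-β, had 199 and 196 in LdBC, 268 and 278 in Basal and 16.4 in luminal cells and passed likewise (limma adjusted p = 0.0440 and 0.0349). The BMP antagonist Nbl1 had 11.1 and 9.58 in LdBC, 36.6 and 29.8 in Basal and 0 in luminal cells, and passed in Basal (limma adjusted p = 0.0349). Lrg1 had 342 and 379 in LdBC, 60.4 and 0 in Basal and 43.0 in luminal cells, and Fstl1 had 2.03 and 19.6, 66.3 and 55.4, and 0.0864 in the same order. Dcn, a proteoglycan that binds TGF-β and marks fibroblasts, had 26.8 and 67.0 in LdBC, 275 and 268 in Basal and 305 in luminal cells. Of 10 listed fibroblast genes, 8 were in the table. Of these, 2 and 4 were above 0 in LdBC, 8 and 7 in Basal and 1, Dcn itself, in luminal cells. The fibroblast sum was mostly Dcn, with 29.6 and 67.7 in LdBC, 292 and 279 in Basal and 305 in luminal cells. Cxcl12 and Ccl11, chemokines that fibroblasts also make, were lower in LdBC than in Basal and at 0 in luminal cells. The pericyte genes summed to 6.47 and 15.9 in LdBC, 32.1 and 21.8 in Basal and 0 in luminal cells. The part of either cell type in Cxcl12 and Ccl11 was not tested.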

How the data were processed

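The authors deposited 1 table of log2(FPKM + 1) per gene and library. Per the submitters' processing notes the tools were Cuffdiff 2.0.2, Cufflinks 2.0.2 and TopHat2 2.0.4, with mm10. The annotation and filters are not given in the sources used here. Every row of the table exceeded 1 FPKM in at least 1 library (lowest row maximum 1.0003), so genes below that have no row. Libraries were made by a modified Smart-seq2 protocol (Geo-seq), per the labels' protocols, which mention no molecular identifiers or strand. The log base was read from the values: with base 2, 99.7% to 99.8% of values above 1 return to 6 significant digits, within 0.02 of the last digit. Of 12311 rows, 18 with names turned into dates were left out. Depth is unknown, so no count intervals are given.

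FPKM was recovered by undoing the log. The test was limma 3.58.1 (R 4.3.3) with an intensity trend on log2(FPKM + 1), pseudocount 1, in 1 fit of the 5 libraries by group (2 residual and 1.65 prior degrees of freedom), for 10626 genes whose FPKM averaged at least 1. Two-sided p-values were adjusted over all of them by Benjamini-Hochberg, and genes under 0.05 passed. The fit was tested on simulated data. Members with an FPKM of 10 or more in a library, and Cxcl2, are given by library; of the pathway lists, the genes that passed and the 3 largest separated differences between LdBC and Basal. Members and lists were chosen with earlier results of these data known. Of the members, 90 symbols are current in RefSeq and 2 older ones were matched. The labels number the libraries of LdBC and Basal 1 and 2 without saying that a number marks a shared animal or day.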

Additional observations from a re-analysis of the deposited data

How the results depend on the processing

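The alternatives were another pseudocount, filter, scaling or variance model, each library left out, and a replicate block. For LdBC against Basal, 0 members passed in all of these but one: without the luminal library and with the filter on mean FPKM taken over the other 4 libraries, which was chosen after seeing the data, 1 member (Cxcl14, lower) passed. With the replicate block the count was 0 as well, but 0 of all genes passed there, with 1 residual degree of freedom left. That run, like those without an LdBC or Basal library, therefore says little on the members. The deviations of same-numbered libraries had a correlation of 0.0115 across 10626 genes, so the numbers were not taken as pairs. For LdBC against luminal cells, 9 members passed, 15 with a pseudocount of 0.1, 5 with quantile normalization, 0 with median-of-ratios scaling and 0 with no filter on low values. For Basal against luminal cells, 9 passed, 16 with a pseudocount of 0.1 and 14 with a pseudocount of 5. Leaving out an LdBC or Basal library gave 0 to 0 in both, and 0 over all genes, where 1 residual degree of freedom remained. Counts by position under alternatives were added after seeing the data. Members with LdBC above Basal numbered 15 to 28 and those below 22 to 35 when 1 library was left out, where fewer libraries separate more of all genes too. With median-of-ratios scaling they were 11 (14.1%, against 21.1% of all genes) and 28 (35.9%, against 27.7%), and with quantile normalization 15 (19.2%, against 24.3%) and 25 (32.1%, against 25.3%). The 47 named differences followed had passed, or had separated groups above 0 and an unadjusted limma p under 0.05, with Cxcl2 added. None changed sign under any alternative run. For separated groups, leaving out a library or changing the pseudocount cannot change the sign, so those runs say nothing on it. Over all genes, 1 passed in LdBC against Basal, 4 with quantile normalization, 2 with a mean FPKM of 5 or more, 0 with a pseudocount of 0.1 and 56 without the luminal library and its filter. In LdBC against luminal cells 426 passed, 1175 with a pseudocount of 0.1, 788 with a mean FPKM of 5 or more, 647 without a trend, and 4 with median-of-ratios scaling or no filter. In Basal against luminal cells 883 passed, 1826 with a pseudocount of 0.1, 1621 with a mean FPKM of 5 or more and 488 with no filter. Median-of-ratios scaling moved the median difference of all genes to -0.11 in LdBC against Basal, 0.27 in LdBC against luminal cells and 0.42 in Basal against luminal cells, from 0.20, 0.01 and -0.13. No comparison with luminal cells could be made without the luminal library.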
